A study of Rattus norvegicus with 9 samples.

Results

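Sinusoidal endothelial and stellate cell markers were examined in arrays of hepatic macrophages from rats with partial portal vein ligation (PPVL), an operation in which a calibrated stenosis of the portal vein gives a model of portal hypertension. The 10 genes were 4 endothelial markers, Stab2, Lyve1, Cdh5 and Pecam1, and 6 stellate cell markers, Lrat, Des, Pdgfrb, Reln, Col1a1 and Col3a1. A member was measured by the probeset whose single gene symbol in the platform's annotation was its own, and 8 of the 10 had one such probeset each. Stab2 and Pecam1 were not analysed here. The 8 members stand among 18166 genes with a probeset of their own.

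The arrays fall into 3 groups of 3 male Sprague-Dawley rats, at 10 days after PPVL, at 3 days after PPVL and after a sham operation, in which the portal vein was separated from its surroundings but not ligated. The labels name a separate rat for each array and give neither a day for the sham rats nor a batch. Each array holds RNA of macrophages isolated from 1 liver, so less RNA from a cell type and fewer cells of that type cannot be told apart. Values are log2 signals, on which a difference of 1 is 2-fold. Array medians lay between 5.215 and 5.265, and any 2 arrays correlated at 0.987 to 0.993 across probesets.

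Liver sinusoids are lined by fenestrated endothelial cells, which clear waste molecules from blood through scavenger receptors and lie directly beside Kupffer cells. Hepatic stellate cells sit in the space beneath them, store vitamin A as retinyl esters and, when activated after injury, make fibrillar collagen. Both cell types border on the macrophages of the sinusoid, and their markers are used to judge what else a macrophage preparation holds.

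None of the tested members passed the test for a change after ligation. A gene was tested where its mean over the 9 arrays reached the 30th percentile of all probesets (4.16), and a change was called at an adjusted p under 0.05 in limma's moderated test over 14014 genes. Lrat, at a mean of 4.11, fell below this filter and Reln, at 4.35, was the member just above it. The call was passed by 0 of the 7 tested members at 3 days, where 2.86% of all genes passed, by 0 at 10 days, where 0.735% passed, and by 0 between the days, where 0.0714% passed. At an unadjusted p under 0.05 there were 0, 2 and 0 of the 7, where 15.5%, 16.2% and 11.3% of all genes lay. The median log2 difference of the 7 members was -0.01 at 3 days, 0.09 at 10 days and 0.09 between the days, and over all genes tested it was -0.0138, -0.000402 and 0.00531.

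**Figure D1:**
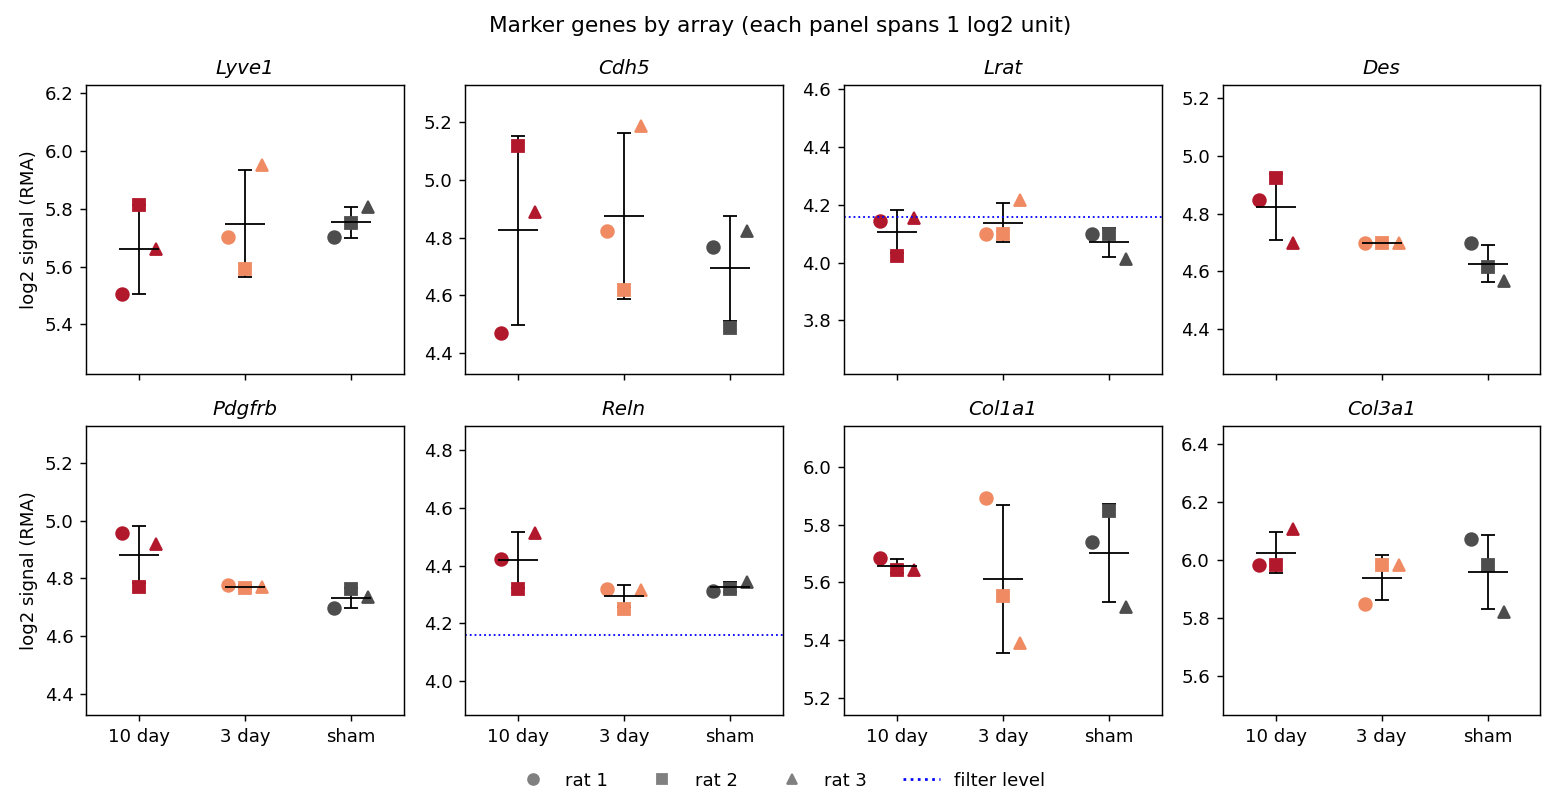
Log2 signal (RMA) of the 8 members on each array, with the groups at 10 days, at 3 days and sham on the horizontal axis, each panel spanning 1 log2 unit. Points are single rats, the bar is the mean ± SD of 3, and the dotted line is the filter at 4.16; the groups of 7 of the 8 genes overlap in all comparisons, and those of Pdgfrb separate from sham by small steps.

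Lyve1 encodes a hyaluronan receptor of sinusoidal and lymphatic endothelium that some resident macrophages also carry. Its log2 signals were 5.51, 5.81 and 5.66 at 10 days, 5.70, 5.59 and 5.95 at 3 days and 5.70, 5.75 and 5.81 in sham rats. The groups overlapped, and the highest array was 3-day rat 3 while the lowest was 10-day rat 1. Lyve1 differed from sham by -0.09 ± 0.10 at 10 days (SE, n = 3 rats per group, 95% interval -0.33 to 0.14, adjusted p = 0.719). At 3 days its difference from sham was -0.01 ± 0.10 (95% interval -0.24 to 0.23, adjusted p = 0.991).

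Cdh5 encodes VE-cadherin, the adhesion molecule of endothelial junctions. The log2 signals of Cdh5 were 4.47, 5.12 and 4.89 at 10 days, 4.82, 4.62 and 5.18 at 3 days and 4.77, 4.49 and 4.82 in sham rats. Of the members it varied most among arrays, over 0.71 log2 units (1.64-fold), a range larger than that of 88% of the genes tested, and the spread lay inside the groups. The SD was 0.33 at 10 days, 0.29 at 3 days and 0.18 in sham rats. Cdh5 differed from sham by 0.13 ± 0.18 at 10 days (95% interval -0.28 to 0.54, adjusted p = 0.776) and by 0.18 ± 0.18 at 3 days (95% interval -0.23 to 0.59, adjusted p = 0.712). The upper ends of these intervals correspond to 1.46-fold and 1.51-fold, the widest limits among the members.

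Among the stellate cell markers, Des encodes desmin, the intermediate filament by which rat stellate cells are recognised and which muscle cells share. Desmin signals were, on the log2 scale, 4.85, 4.92 and 4.70 at 10 days, 4.70, 4.70 and 4.70 at 3 days and 4.70, 4.62 and 4.57 in sham rats. The value 4.69677 stood on 5 of the 9 arrays, all 3 arrays at 3 days among them, and 10-day rat 3 and sham rat 1 were tied there, where their groups met. Des differed from sham by 0.20 ± 0.07 at 10 days (1.14-fold, 95% interval 0.04 to 0.35), with an unadjusted p of 0.0201 in limma and an adjusted p of 0.208. At 3 days the difference from sham was 0.07 ± 0.07 (adjusted p = 0.712).

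Pdgfrb encodes a receptor for platelet-derived growth factor that drives stellate cell proliferation and also marks pericytes. Its log2 signals were 4.96, 4.77 and 4.92 at 10 days, 4.78, 4.77 and 4.77 at 3 days and 4.70, 4.76 and 4.73 in sham rats. All 3 arrays of each PPVL group lay above all 3 sham arrays, a separation upwards that 10.1% of all genes showed at 3 days and 9.88% at 10 days (18.8% and 21% in either direction). Between 10 and 3 days the groups of all 7 tested members overlapped, where 14.6% of all genes did not. At 10 days the nearest arrays of the groups were 10-day rat 2 at 4.77 and sham rat 2 at 4.76. At 3 days they were 3-day rat 2 at 4.76546 and sham rat 2 at 4.76437, nearly a tie. Pdgfrb differed from sham by 0.15 ± 0.06 at 10 days (1.11-fold, 95% interval 0.01 to 0.29), with an unadjusted p of 0.0402 in limma and an adjusted p of 0.281. At 3 days the difference from sham was 0.04 ± 0.06 (adjusted p = 0.840).

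Reln encodes reelin, a secreted glycoprotein that stellate cells and lymphatic endothelium make. Reln had log2 signals of 4.42, 4.32 and 4.51 at 10 days, 4.32, 4.25 and 4.31 at 3 days and 4.31, 4.32 and 4.34 in sham rats. The arrays of 10-day rats 1 and 3 stood above all others, as they did for Pdgfrb, while 10-day rat 2 lay among the sham arrays. Reln differed by 0.12 ± 0.06 between 10 and 3 days (95% interval -0.02 to 0.27, adjusted p = 0.504) and by 0.09 ± 0.06 between 10 days and sham (adjusted p = 0.519).

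Lrat encodes lecithin retinol acyltransferase, which makes the retinyl esters that stellate cells store. Lrat had log2 signals of 4.15, 4.02 and 4.15 at 10 days, 4.10, 4.10 and 4.22 at 3 days and 4.10, 4.10 and 4.01 in sham rats, and 1 of the 9 arrays, 3-day rat 3, exceeded the filter level. In a fit with no filter Lrat differed from sham by 0.04 ± 0.07 at 10 days (adjusted p = 0.864) and by 0.07 ± 0.07 at 3 days (adjusted p = 0.744). The groups overlapped in every comparison.

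Col1a1 encodes a chain of type I collagen and Col3a1 the chain of type III collagen, which activated stellate cells and fibroblasts secrete. Col1a1 had log2 signals of 5.68, 5.64 and 5.64 at 10 days, 5.89, 5.55 and 5.39 at 3 days and 5.74, 5.85 and 5.52 in sham rats. The highest and the lowest array of Col1a1 belonged to the same group, 3-day rats 1 and 3. Col1a1 differed from sham by -0.04 ± 0.12 at 10 days (95% interval -0.32 to 0.24, adjusted p = 0.908) and by -0.09 ± 0.12 at 3 days (95% interval -0.37 to 0.19, adjusted p = 0.805). Col3a1 had log2 signals of 5.98, 5.98 and 6.11 at 10 days, 5.85, 5.98 and 5.98 at 3 days and 6.07, 5.98 and 5.82 in sham rats, with 5.98388 on 5 of the 9 arrays. The lowest array of Col3a1 was sham rat 3 and the highest 10-day rat 3. Its differences from sham were 0.07 ± 0.08 at 10 days (95% interval -0.11 to 0.25, adjusted p = 0.739) and -0.02 ± 0.08 at 3 days (95% interval -0.20 to 0.16, adjusted p = 0.943).

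**Figure D2:**
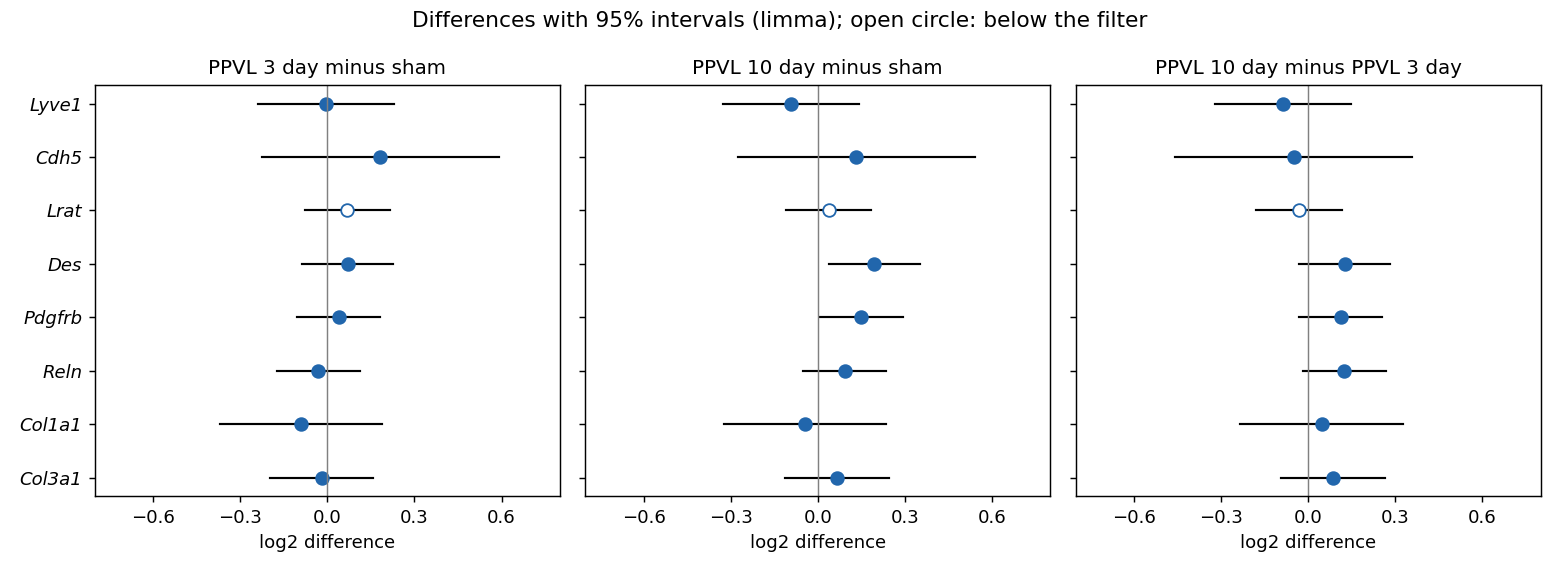
Log2 differences of the 8 members with 95% intervals from limma, in 1 panel for each of the 3 comparisons; Lrat, drawn open, was below the filter and is shown from the fit with no filter. The intervals of Des and Pdgfrb at 10 days lie above 0 before adjustment, and the other intervals include 0.

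Several members had repeated values. Of the 8 members, 7 had a value that recurred exactly on more than 1 array, as had 51.2% of the genes tested, while a value shared by 5 or more arrays, as in Des and Col3a1, was found in 4.94% of them. The SD of 0 for Des at 3 days comes from such a repeat, and its effect on the tests was not tested. The range over the 9 arrays was 0.21 for Lrat, 0.26 for Pdgfrb and Reln, 0.29 for Col3a1 and 0.35 for Des, below the median of 0.38 over the genes tested, and 0.45 for Lyve1, 0.50 for Col1a1 and 0.71 for Cdh5, above it.

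No pair of members varied together beyond the test's threshold. Of 28 pairs correlated over the 9 arrays, 16 had a Pearson r above 0, and r lay between -0.56 and 0.80. In exact permutation tests over pairings, 2-sided and with Benjamini-Hochberg adjustment over the 28 pairs, 0 pairs passed, and 2 had an unadjusted p under 0.05. Lyve1 and Cdh5 had r = 0.764 (exact permutation p = 0.0165, adjusted p = 0.324) and rho = 0.703 (exact permutation p = 0.0402, adjusted p = 0.826). After the group means had been subtracted r was 0.900 for Lyve1 and Cdh5, and without the 2 arrays farthest from the median of Lyve1 it was 0.421. Both genes were highest in 3-day rat 3, followed by 10-day rat 2, and lowest in 10-day rat 1. Pdgfrb and Reln had r = 0.801 (exact permutation p = 0.0231, adjusted p = 0.324) and rho = 0.562 (exact permutation p = 0.122, adjusted p = 0.826). Without the 2 arrays farthest from the median of Pdgfrb, those of 10-day rats 1 and 3, r was -0.191, so the relation rests on those arrays. Col1a1 and Col3a1 had r = -0.0242 (exact permutation, no p under 0.05).

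**Figure D3:**
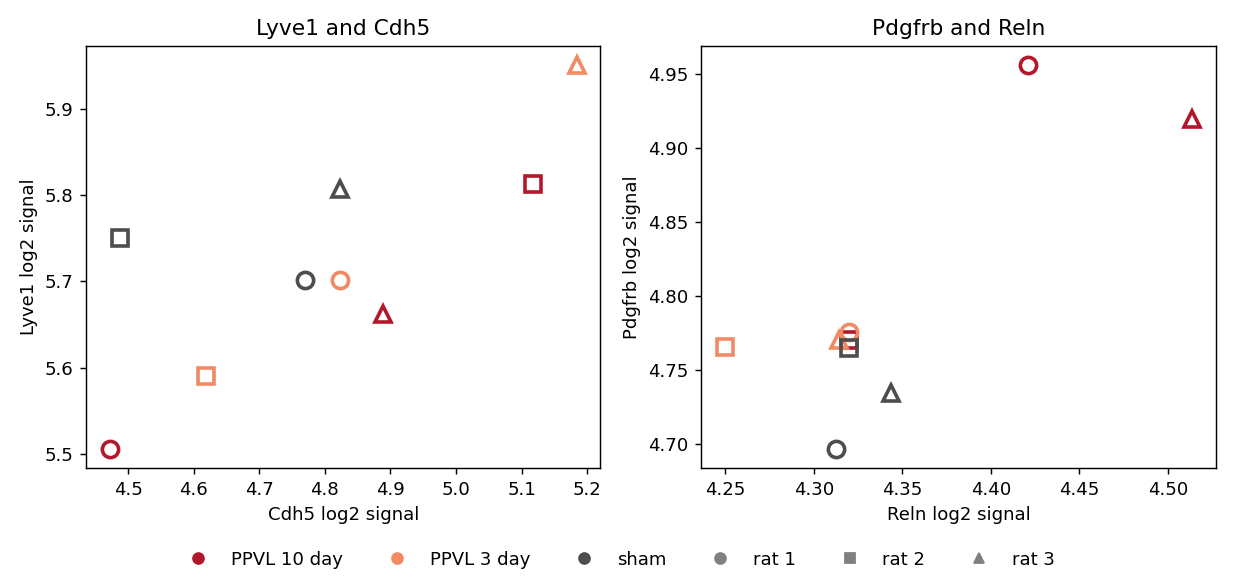
Log2 signals of Lyve1 against Cdh5 and of Pdgfrb against Reln on the 9 arrays, coloured by group, with the symbol giving the rat. The points of Lyve1 and Cdh5 spread over all groups (r = 0.764), while 7 arrays of Pdgfrb and Reln lie close together and 10-day rats 1 and 3 stand apart.

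For each member the tested gene with the most similar values over the 9 arrays was taken, leaving out members and symbols that start with LOC, RGD, MGC or a digit. This is a description, since the best of many genes is high by selection. Rttn was nearest to Lyve1 (r = 0.941), Hepacam2 to Cdh5 (r = 0.922), Sphk1, a sphingosine kinase, to Lrat (r = 0.923) and Sdk2 to Des (r = 0.953). E230034O05Rik, a clone-style symbol with a mean of 4.169, just above the filter, was nearest to Pdgfrb (r = 0.965). Atp2a2, the calcium pump of the endoplasmic reticulum, was nearest to Reln (r = 0.991), Adrb3 to Col1a1 (r = 0.939) and Igsf21 to Col3a1 (r = 0.964). None of these 8 is in the endothelial or stellate lists described next. For the mean of Lyve1 and Cdh5 the 5 nearest genes were Rbbp9, Snapc3, Gtf3c5, Hepacam2 and Dus4l (r from 0.895 to 0.943), and for the mean of the stellate members Rgr, Col9a1, Zg16b, Fgf17 and Sp7 (r from 0.943 to 0.986).

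No endothelial gene of the wider lists passed the adjusted test. Of 49 listed endothelial genes 41 had a probeset of their own and 37 were tested, members included. In limma 0 of the 37 passed in any of the 3 comparisons. Of all genes 2.86% passed at 3 days, 0.735% at 10 days and 0.0714% between the days. A count of 0 of 37 is near these shares. At an unadjusted p under 0.05 there were 8 at 3 days (2 higher and 6 lower), 7 at 10 days (4 higher and 3 lower) and 6 between the days (5 higher and 1 lower). Over all genes at that limit, 9.1% were higher and 6.39% lower at 3 days, 7.99% higher and 8.21% lower at 10 days, and 5.04% higher and 6.22% lower between the days. The median log2 difference was -0.04 at 3 days, 0.01 at 10 days (0.00542) and 0.05 between the days.

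Among scavenger receptors and other sinusoidal genes, the largest difference at 3 days was that of Mrc1, the mannose receptor, which macrophages also express (0.73 ± 0.22, adjusted p = 0.131). The macrophage list had a median difference of 0.41 at 3 days, with 1 of 14 genes called higher, where 2.15% of all genes were. Its part in the Mrc1 value was not tested. F8, coagulation factor VIII, of which sinusoidal endothelium is a main source, had log2 signals of 7.28, 7.03 and 7.002 at 10 days, 7.14, 7.17 and 7.08 at 3 days and 6.73, 6.94 and 6.83 in sham rats. The PPVL arrays of F8 all lay above the sham arrays, with differences of 0.27 ± 0.09 at 10 days (adjusted p = 0.175) and 0.29 ± 0.09 at 3 days (adjusted p = 0.122). Such a separation upwards was shown by 10.1% of all genes at 3 days and 9.88% at 10 days. Of the 37 endothelial genes, 3 were higher and 4 lower than sham without overlap at 3 days, and 5 higher and 3 lower at 10 days. In either direction 18.8% and 21% of all genes did not overlap. Stab1, the scavenger receptor stabilin-1, differed from sham by -0.22 ± 0.08 at 10 days (adjusted p = 0.220) and by -0.21 ± 0.08 at 3 days (adjusted p = 0.259). Oit3, a gene of sinusoidal endothelium, differed from sham by -0.25 ± 0.10 at 10 days (adjusted p = 0.259). Which cells gave the signals of F8, Stab1 and Oit3 was not tested.

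Among junction genes and endothelial regulators, Egfl7, a protein that endothelial cells secrete, was highest at 10 days and lowest at 3 days, with log2 signals of 5.39, 5.32 and 5.41 at 10 days and 5.04, 5.07 and 5.18 at 3 days. Its difference between the days was 0.27 ± 0.06 (adjusted p = 0.215). The transcription factors Sox17 (0.24 ± 0.06), Tal1 (0.30 ± 0.09) and Gata4 (0.25 ± 0.09), and the ligand Wnt2 (0.19 ± 0.08) also had 10-day arrays above all 3-day arrays, with adjusted p from 0.242 to 0.400. In this comparison 6 of the 37 genes were higher and 1 lower without overlap. Of all genes 14.6% did not overlap, counting both directions, and the share in each direction is not given here. Calcrl, the receptor subunit for adrenomedullin, differed from sham by -0.33 ± 0.13 at 10 days (adjusted p = 0.243) and by -0.38 ± 0.13 at 3 days (adjusted p = 0.177). The mean of Calcrl over the 9 arrays was 8.87, against 4.80 for Cdh5, and which cells gave its signal was not tested. The progenitor and large-vessel marker Cd34 and the genes Ramp2, Sox18 and Rspo3 lay below the filter.

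Of 44 listed stellate cell genes 40 had a probeset and 31 were tested, and 2 of the 31 changed at 3 days, 1 higher and 1 lower, where 2.15% of all genes were called higher and 0.714% lower. None of the 31 passed at 10 days or between the days in limma, where 0.735% and 0.0714% of all genes passed. A count of 0 of 31 is near these shares. At an unadjusted p under 0.05 there were 5 at 3 days (3 higher and 2 lower), 5 at 10 days (4 higher and 1 lower) and 6 between the days (3 higher and 3 lower), where 15.5%, 16.2% and 11.3% of all genes lay. Lox, Loxl2, Dcn, Lum, Mgp and Postn, all matrix genes of fibroblasts and activated stellate cells, lay below the filter, as did Pdgfra and Cxcl12.

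Ecm1, which encodes a secreted matrix protein that holds back the activation of latent TGF beta, rose at 3 days. Its log2 signals were 5.72, 6.03 and 5.97 at 10 days, 6.33, 6.66 and 6.78 at 3 days and 5.89, 5.93 and 6.14 in sham rats. The 3-day arrays lay above all others, by 0.60 ± 0.13 over sham (1.52-fold, adjusted p = 0.0409). This call was lost in 7 of 9 fits without 1 array (adjusted p up to 0.130), all but those without 10-day rat 1 or 3-day rat 1, and in 3 of 9 other settings (up to 0.152). For Ecm1 the difference between 10 and 3 days was -0.68 ± 0.13 (adjusted p = 0.172). Several lists of other cell types were also above sham at 3 days. Their median difference was 0.54 over 6 platelet genes, 0.41 over 14 macrophage genes and 0.41 over 6 B cell genes. It was 0.33 over 4 lymphatic endothelial genes and 0.12 over 8 hepatocyte genes. Of the hepatocyte genes Alb, at 0.75, differed most but was not called (limma adjusted p = 0.413), and Hp, at 0.72, was called. The lists of T and natural killer cells, smooth muscle, portal fibroblasts and cholangiocytes had medians below 0. The part of other cell types in the Ecm1 result was not tested.

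Thy1, a surface glycoprotein of fibroblasts and, in the rat, also of lymphoid cells, fell at 3 days. Its log2 signals were 8.04, 8.09 and 7.87 at 10 days, 7.75, 7.68 and 7.67 at 3 days and 8.08, 8.06 and 8.10 in sham rats. All 3-day arrays lay below all others, by -0.38 ± 0.07 from sham (0.771-fold, adjusted p = 0.0197), a call lost in 5 of 9 fits without 1 array, those without 3-day rat 2 or 3 or any sham rat (adjusted p up to 0.0706), and with all probesets (adjusted p = 0.0862). Markers of T and natural killer cells had a median difference of -0.25 over 11 tested genes at 3 days, 10 of them below 0, 0 called and 4 lower without overlap, where 8.66% of all genes were. At 10 days the median of these genes was -0.43, while Thy1 differed from sham by -0.08 ± 0.07 (adjusted p = 0.635). Their part in the Thy1 result was not tested.

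The other matrix genes tested did not pass with all 9 arrays. Timp1, an inhibitor of metalloproteinases that macrophages also make, differed by 0.50 ± 0.15 between 3 days and sham (adjusted p = 0.126) and by -0.73 ± 0.15 between 10 and 3 days (adjusted p = 0.178). Without 3-day rat 3 it passed at 3 days (0.67, adjusted p = 0.0306). Tagln, an actin-binding protein of contractile cells, differed from sham by 0.43 ± 0.12 at 10 days (adjusted p = 0.118) and by 0.36 ± 0.12 at 3 days (adjusted p = 0.166). Without sham rat 1 Tagln passed at 3 days (0.49, adjusted p = 0.0458). Sparc differed from sham by -0.34 ± 0.12 at 10 days (adjusted p = 0.213). Of the 17 tested genes of stellate cell identity, 14 were above 0 at 10 days against sham, with a median of 0.09, where 49.8% of all genes were above 0. In the adjusted test 0 of the 17 passed there, where 0.735% of all genes did.

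**Figure D4:**
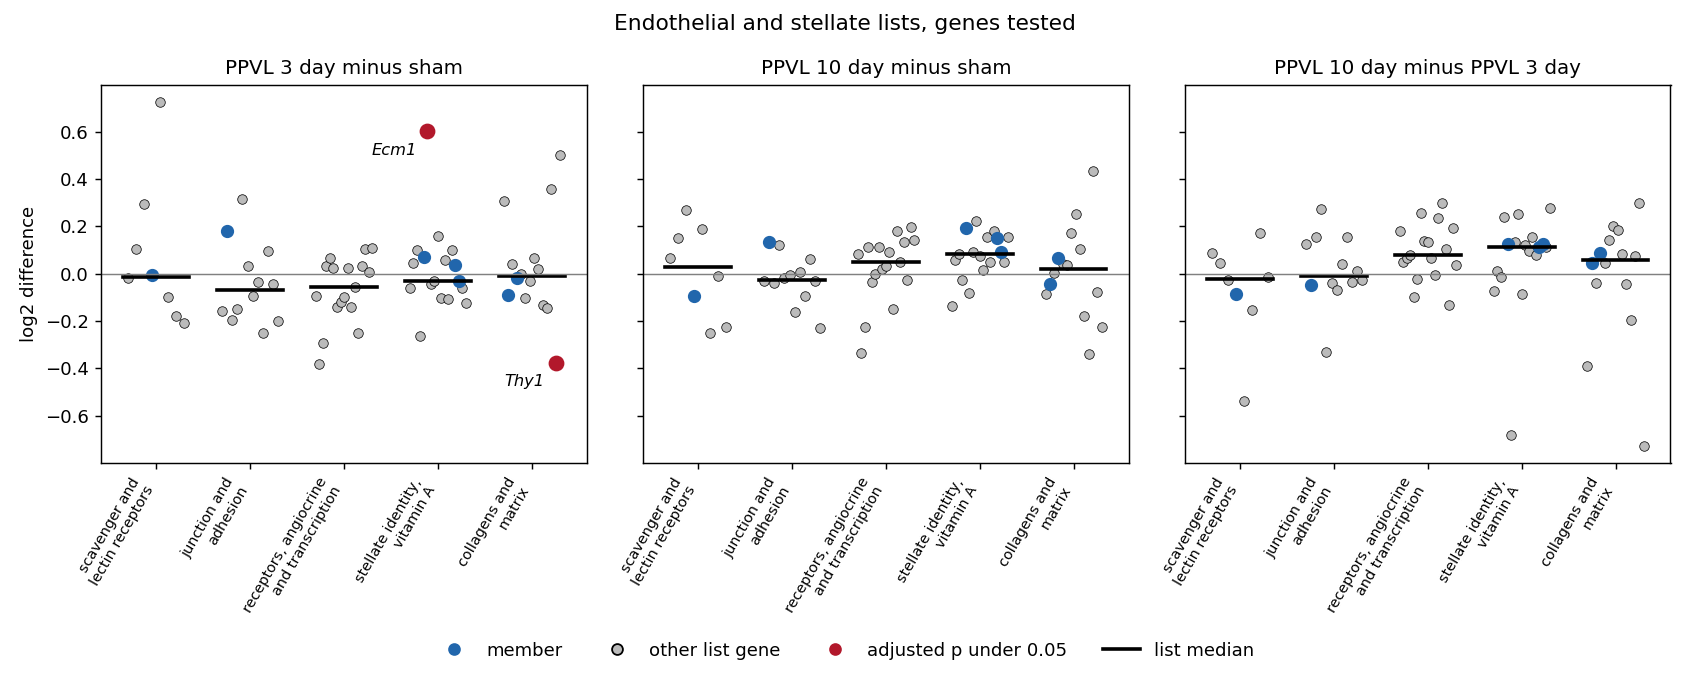
Log2 differences of the tested genes in 3 endothelial and 2 stellate lists, in 1 panel per comparison, with members in blue, called genes in red and list medians as bars. Only Ecm1 and Thy1, at 3 days, are called among the genes drawn.

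Of the 5 endothelial and stellate lists, the stellate ones varied least of all lists from array to array. The others varied about as much as the smooth muscle and portal fibroblast lists. The range of the list mean over the 9 arrays was 0.0774 for collagens and matrix (14 genes) and 0.15 for stellate identity (17 genes). It lay between 0.188 (endothelial regulators, 17 genes) and 0.256 (endothelial junction, 12 genes) for the endothelial lists of the 5. The range was 0.19 for smooth muscle (6 genes), 0.22 for portal fibroblasts and mesothelium (5 genes), 0.507 for T and natural killer cells, 0.738 for macrophages and 1.18 for platelets. The range of a mean also depends on the number of genes, and opposite changes cancel in it. The mean log2 signal of the 37 endothelial genes lay between 5.71 and 5.79 at 10 days, 5.68 and 5.78 at 3 days and 5.70 and 5.78 in sham rats, and that of the 31 stellate genes between 5.57 and 5.60, 5.55 and 5.57, and 5.50 and 5.58 in the same groups. For 14 macrophage genes, all above the filter, it lay between 7.15 and 7.20 at 10 days, 7.10 and 7.60 at 3 days and 6.87 and 6.93 in sham rats. Of these genes Lyz2, which encodes lysozyme, rose at 3 days (0.37, adjusted p = 0.02002), and the other 13 did not pass. Over all genes 2.15% were called higher at 3 days.

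The hepatocyte list (8 tested genes) ranged from 5.55 to 5.62 at 10 days, 5.34 to 5.78 at 3 days and 5.25 to 5.47 in sham rats, and 1 gene, Hp, rose at 3 days. The platelet list (6 genes, 0 called) ranged from 5.90 to 6.26 at 10 days, 6.19 to 7.08 at 3 days and 6.14 to 6.46 in sham rats. The list of T and natural killer cells (11 genes) ranged from 9.51 to 9.60 at 10 days, 9.57 to 9.79 at 3 days and 9.85 to 10.02 in sham rats, with 1 gene, Cd5, called lower at 10 days. The B cell list (6 genes) ranged from 7.95 to 8.32 at 10 days, 7.82 to 8.30 at 3 days and 7.53 to 7.57 in sham rats, with 2 genes called higher at 3 days. Over all genes 2.15% were called higher at 3 days, and 0.735% were called in either direction at 10 days. Lists of smooth muscle (6 genes), of portal fibroblasts and mesothelium (5 genes), of lymphatic endothelium (4 genes, Reln included) and of cholangiocytes (1 gene) had 0 genes called in all comparisons. The lymphatic list ranged from 5.43 to 5.86 at 10 days, 5.95 to 6.19 at 3 days and 5.63 to 5.87 in sham rats, so its 3-day arrays lay above the rest, while the Reln difference from sham at 3 days was -0.03. Of its 4 tested genes Mmrn1 and Pdpn were above 0 at 3 days against sham (0.68 and 0.77, adjusted p = 0.125 and 0.186), and Ccl21 (-0.15) and Reln were below 0. Platelets also hold the Mmrn1 product. Neither the part of the platelet list in the Mmrn1 value nor that of the macrophage list in the Pdpn value was tested. Epcam, Krt19, Sox9 and Cftr of cholangiocytes, Prox1 of lymphatic endothelium and Apob of hepatocytes lay below the filter.

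**Figure D5:**
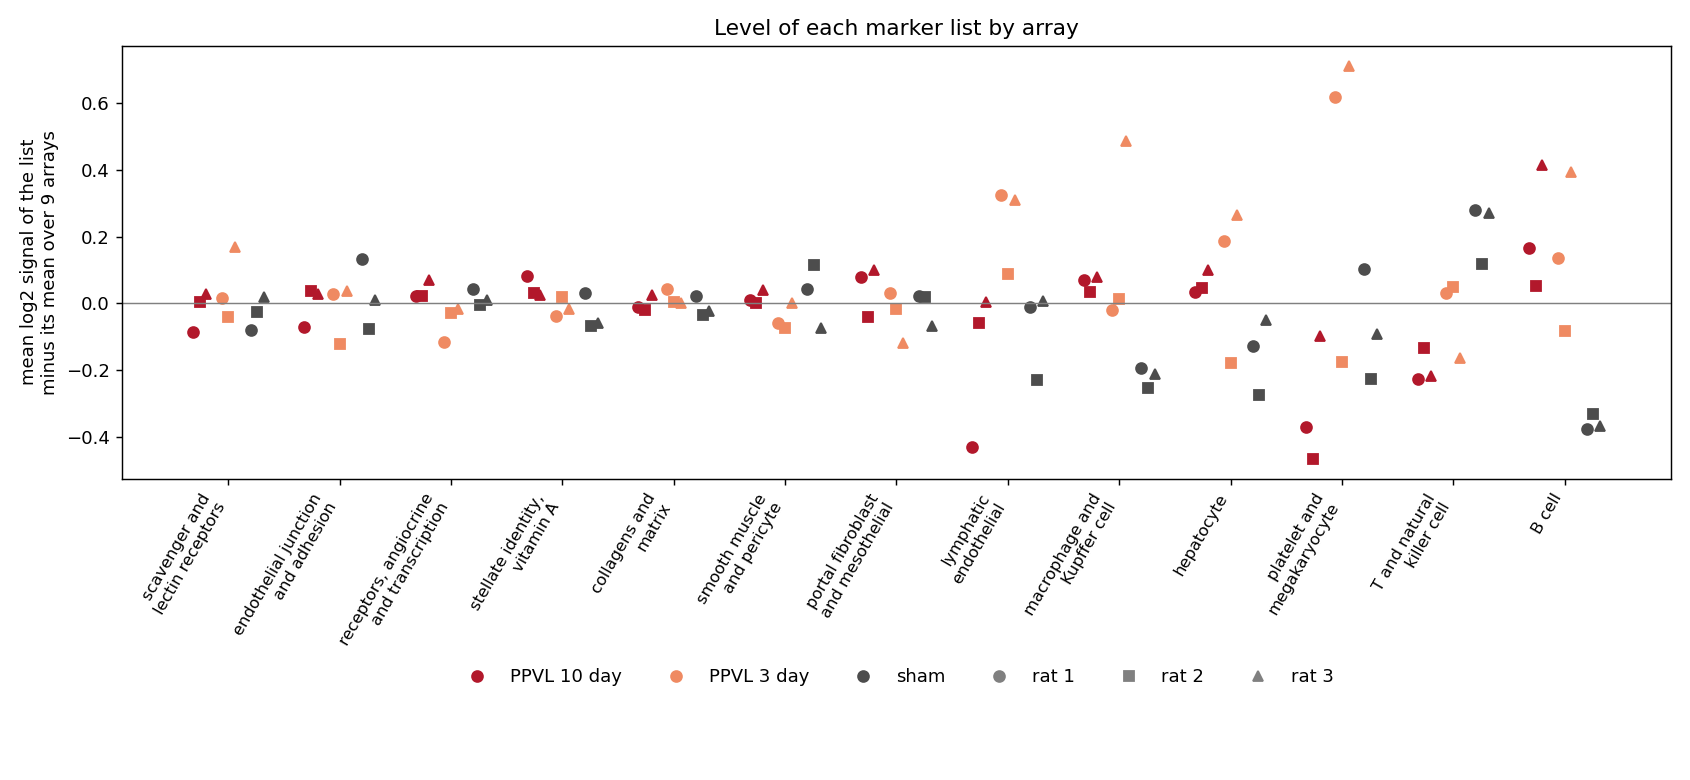
Mean log2 signal of 13 marker lists on each array minus the list's mean over the 9 arrays, with the groups at 10 days, at 3 days and sham from left to right within each list and the symbol giving the rat. Of the 5 endothelial and stellate lists, the stellate ones spread least of all lists drawn and the others about like the smooth muscle and portal fibroblast lists. The platelet list, at 1.18, spreads most.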

How the data were processed

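The deposited values are log2 signals, 1 per probeset and array, made by the authors with RMA and Transcriptome Analysis Console, per the submitters' processing notes; versions and the genome build are not given in the sources used here, and no further normalization was applied. Of 36685 probesets, 18511 carried 1 gene symbol, 575 several and 17599 none. The probeset with the highest mean stood for a gene. No detection call was used, so a dim gene cannot be told from background. For arrays no depth applies, and their number limits the precision.

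Groups came from the titles. Models were fitted to all 9 arrays with limma 3.58.1 in R 4.3.3 (6 residual and 3.59 prior degrees of freedom), 2-sided, with Benjamini-Hochberg adjustment over 14014 genes and a threshold of 0.05; the procedure was tested on simulated data. An exact permutation test of 3 rats against 3 cannot go below p = 0.1. Lists were described by counts and medians. All members were named. Of each endothelial or stellate list up to 4 further genes a comparison could be named, first those called and then those with the smallest p. For other cell types lists were named, and called genes named there were chosen after their values were seen. Of the list genes, 22 had no probeset of their own. The members and lists were chosen with earlier results of these data known. Fits were repeated with other filters, probeset rules, normalization, moderation, weights, a replicate block, the 2 groups alone and each array left out.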

Additional observations from a re-analysis of the deposited data

How the results depend on the processing

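No member was called in any of the 3 comparisons under the 18 alternatives, which include a 50th percentile filter (3 members tested). Under 6 of them at 10 days and 5 between the days no gene at all was called, so those say nothing about the members. No member's difference changed sign except when an array was left out. There the signs turned for Cdh5 at 10 days (-0.0131 to 0.309) and between the days (-0.20 to 0.13), Lyve1 at 3 days (-0.107 to 0.0734) and between the days (-0.166 to 0.0142), Col1a1 at 3 days (-0.231 to 0.0200067), at 10 days (-0.136 to 0.0287) and between the days (-0.0641 to 0.186), and Col3a1 at 3 days (-0.0895 to 0.0374) and at 10 days (-0.00339 to 0.123), as for Plvap at 10 days (-0.152 to 0.0167). The count of stellate genes called at 3 days, 2 with all arrays, was 0 with all probesets, 1 with no filter, 1 with only the 2 groups compared and 0 to 2 without 1 array; the 1 gene was Tagln without sham rat 1 and Timp1 without 3-day rat 3, and Thy1 in the other fits with 1. With array weights 1 stellate gene, Tagln, was called at 10 days. The numbers of the labels did not pair the rats: deviations of same-numbered arrays correlated at -0.0951 to 0.0837, and 1 of 9 arrays correlated best with its own number. With the replicate block 1 endothelial gene, Mrc1, was called at 3 days (adjusted p = 0.0286), and over all genes the counts were 264 at 3 days, 0 at 10 days and 0 between the days, against 401, 103 and 10. Over the 18 alternatives the count over all genes lay between 107 and 530 at 3 days (190 without sham rat 2), between 0 and 197 at 10 days and between 0 and 18 between the days. Causes were not tested. Pairs of members with an adjusted p under 0.05 numbered 0 under each alternative, but the 216 permutations within groups cannot bring 1 pair alone below an adjusted p of 0.13.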
